A study of Mus musculus with 4 samples.

Results

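Genes that make, salvage or break down NAD and that clear nicotinamide were followed in mouse skin treated with a retinoid cream, a nicotinamide cream or both. The 10 genes were taken by their symbols in the array annotation (Nampt, Nnmt, Nmnat1, Nmnat2, Nmnat3, Nadsyn1, Nadk, Qprt, Cd38 and Bst1), out of 24171 symbols on the array. They are read by 18 targets of 3 probes each, and 9 of the 10 passed the filter on dim genes that 14552 symbols passed. Nmnat3 did not pass.

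The samples were back skin of male BALB/c mice, 8 weeks old, treated 2 times a day for 5 days. Control skin received an oil/water cream, ATRA skin a cream with 0.1% all-trans retinoic acid, NIC skin a nicotinamide (NIC) cream, and ATRA+NIC skin both. The labels give no nicotinamide concentration and do not say how many mice stand behind each RNA. Each group is 1 NimbleGen array labelled with Cy3, so there is no replicate error behind any difference, and precision is limited by the 4 arrays there are. Neighbouring levels of a gene therefore have an order but no error of their own. Values are RMA intensities on a linear scale. Differences are log2, the first group named minus the second. The 5000 random control probes read between 34.0 and 36.3 on the 4 arrays, and a target is called above background here at 2 times that reading or more. Markers of basal keratinocytes, with summed intensities of 66986 to 82304 over 6 genes, and of suprabasal keratinocytes, 115641 to 142341, were bright on all 4 arrays, and none of the defining ones was below background on every array.

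NAD carries electrons in metabolism and is also used up by sirtuins, PARPs and ADP-ribosyl cyclases, which release nicotinamide. Cells return nicotinamide to NAD by the salvage route, in which NAMPT makes nicotinamide mononucleotide and the NMNAT enzymes add the adenylyl group. The de novo route from tryptophan enters through QPRT, and NADSYN1 amidates the acid form of the dinucleotide. Nicotinamide that is not reused is methylated by NNMT and excreted. Skin obtains NAD mostly from nicotinamide, the amide form of vitamin B3.

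RefSeq promoters (build GRCm38.p6, 250 bases before the start site and 50 after) were at hand for 8 of the 10 genes, in 10 entries. Nnmt and Bst1 had no entry. Both strands were searched for AGGTCA, the core hexamer bound by retinoic acid receptors and related nuclear receptors, and for CACGTG, the E-box through which the circadian factors CLOCK and BMAL1 act in mouse. AGGTCA was in 2 of the 10 entries and in 16.3% of all 32851 promoters of that length, and CACGTG was in 1 of the 10 entries and in 7.15% of all. The motifs do not overlap in these windows. The 3 promoters with a match are shown because the genes belong to a comparison of a retinoid cream, with the matched letters in capitals. They are Nampt (chr12:32820085-32820384, plus strand, match at position -151 counted with the start site as 0), Nmnat3 (chr9:98296320-98296619, plus strand, match at position 23) and the second start site of Nadk (chr4:155563565-155563864, plus strand, match at position -40).
Nampt: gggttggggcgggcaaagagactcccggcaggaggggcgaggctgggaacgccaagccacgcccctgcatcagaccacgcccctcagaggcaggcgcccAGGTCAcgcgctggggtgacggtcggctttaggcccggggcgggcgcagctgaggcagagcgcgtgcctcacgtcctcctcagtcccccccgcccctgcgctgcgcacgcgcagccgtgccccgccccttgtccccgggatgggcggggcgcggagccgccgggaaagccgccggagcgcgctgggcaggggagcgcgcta
Nmnat3: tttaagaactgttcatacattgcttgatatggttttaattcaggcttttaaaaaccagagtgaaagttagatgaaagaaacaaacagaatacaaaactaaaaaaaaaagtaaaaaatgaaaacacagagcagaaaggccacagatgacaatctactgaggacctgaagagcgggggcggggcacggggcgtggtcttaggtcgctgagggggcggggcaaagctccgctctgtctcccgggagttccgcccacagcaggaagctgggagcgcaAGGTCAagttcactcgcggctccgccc
Nadk: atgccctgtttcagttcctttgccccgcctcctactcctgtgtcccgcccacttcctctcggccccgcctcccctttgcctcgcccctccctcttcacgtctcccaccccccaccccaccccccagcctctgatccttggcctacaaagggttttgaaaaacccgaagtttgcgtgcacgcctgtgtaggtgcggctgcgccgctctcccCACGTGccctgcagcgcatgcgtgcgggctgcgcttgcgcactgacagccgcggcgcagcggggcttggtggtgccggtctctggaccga
A match describes these letters only. The Nadk match is CACGTG, and neither Nadk entry holds AGGTCA. Of these genes, Nadk and Nampt averaged higher on each ATRA array than on its counterpart without ATRA, while 1 of the 3 Nmnat3 targets was above background on all arrays. Nnmt and Bst1, which had no entry and were not searched, also averaged higher in both pairs. So did Nmnat1, which had no match, but its targets went opposite ways in ATRA+NIC minus NIC, at -0.65 and 1.13. Nmnat2, Nadsyn1, Qprt and Cd38, also without a match, did not average higher in both pairs. A link between matches and these readings was not tested.

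Nnmt, the methyltransferase that clears nicotinamide, was lowest on Control and highest on ATRA+NIC with both of its targets. Its brighter target (chromosome 9, 48399995 to 48413098, MM9) read 696 on Control, 1378 on NIC, 1640.1 on ATRA and 2156 on ATRA+NIC. Its dimmer target, over nearly the same span, read 52.8, 97.5, 101.8 and 135 on these arrays in that order, with the Control value below background. Both targets put Control lowest, then NIC, then ATRA, and ATRA+NIC highest.

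With both targets averaged Nnmt differed by 1.09 in ATRA minus Control (2.13-fold), 0.94 in NIC minus Control (1.91-fold) and 1.49 in ATRA+NIC minus Control (2.82-fold). These differences share the Control array. Added nicotinamide gave 0.40 over ATRA alone, and added ATRA 0.56 over NIC alone, so each cream went with a higher reading also on skin that had the other. The targets of Nnmt differed from each other by 0.016 to 0.29 in these differences, where 3301 symbols with 2 targets above background had median gaps of 0.36 to 0.44. Because Control was below background on the dimmer target, that target alone gives at least 1.98-fold for ATRA+NIC over Control, 1.49-fold for ATRA and 1.42-fold for NIC.

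The middle 95% of symbols of like brightness spanned -1.12 to 1.04 in ATRA+NIC minus Control, and Nnmt lay above it. It also lay above the upper end of 0.96 in ATRA minus Control, and inside the span of -1.05 to 1.18 in NIC minus Control. When both agents were fitted as additive terms with limma, Nnmt had an ATRA coefficient of 0.83 (SE 0.31, limma adjusted p = 0.594) and a NIC coefficient of 0.67 (SE 0.31, limma adjusted p = 0.968), and neither passed 0.05. That model leaves 1 residual degree of freedom, which is the interaction itself, and its p-values assume that the agents add up. Over 9 alternatives the ATRA adjusted p ran from 0.140 to 0.680.

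NNMT is made in liver, fat and connective tissue cells. Fibroblast markers, 6 genes, had summed intensities of 45752 on Control, 46302 on NIC, 52448 on ATRA and 48490 on ATRA+NIC, and adipocyte markers, 5 genes, 11556, 12356, 12834 and 10526. ATRA was highest for both lists, while Nnmt was highest on ATRA+NIC, and no defining marker of either list was below background on every array. Their part in the Nnmt values was not tested. In whole skin, fewer cells of a type and less RNA per cell cannot be told apart.

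**Figure D1:**
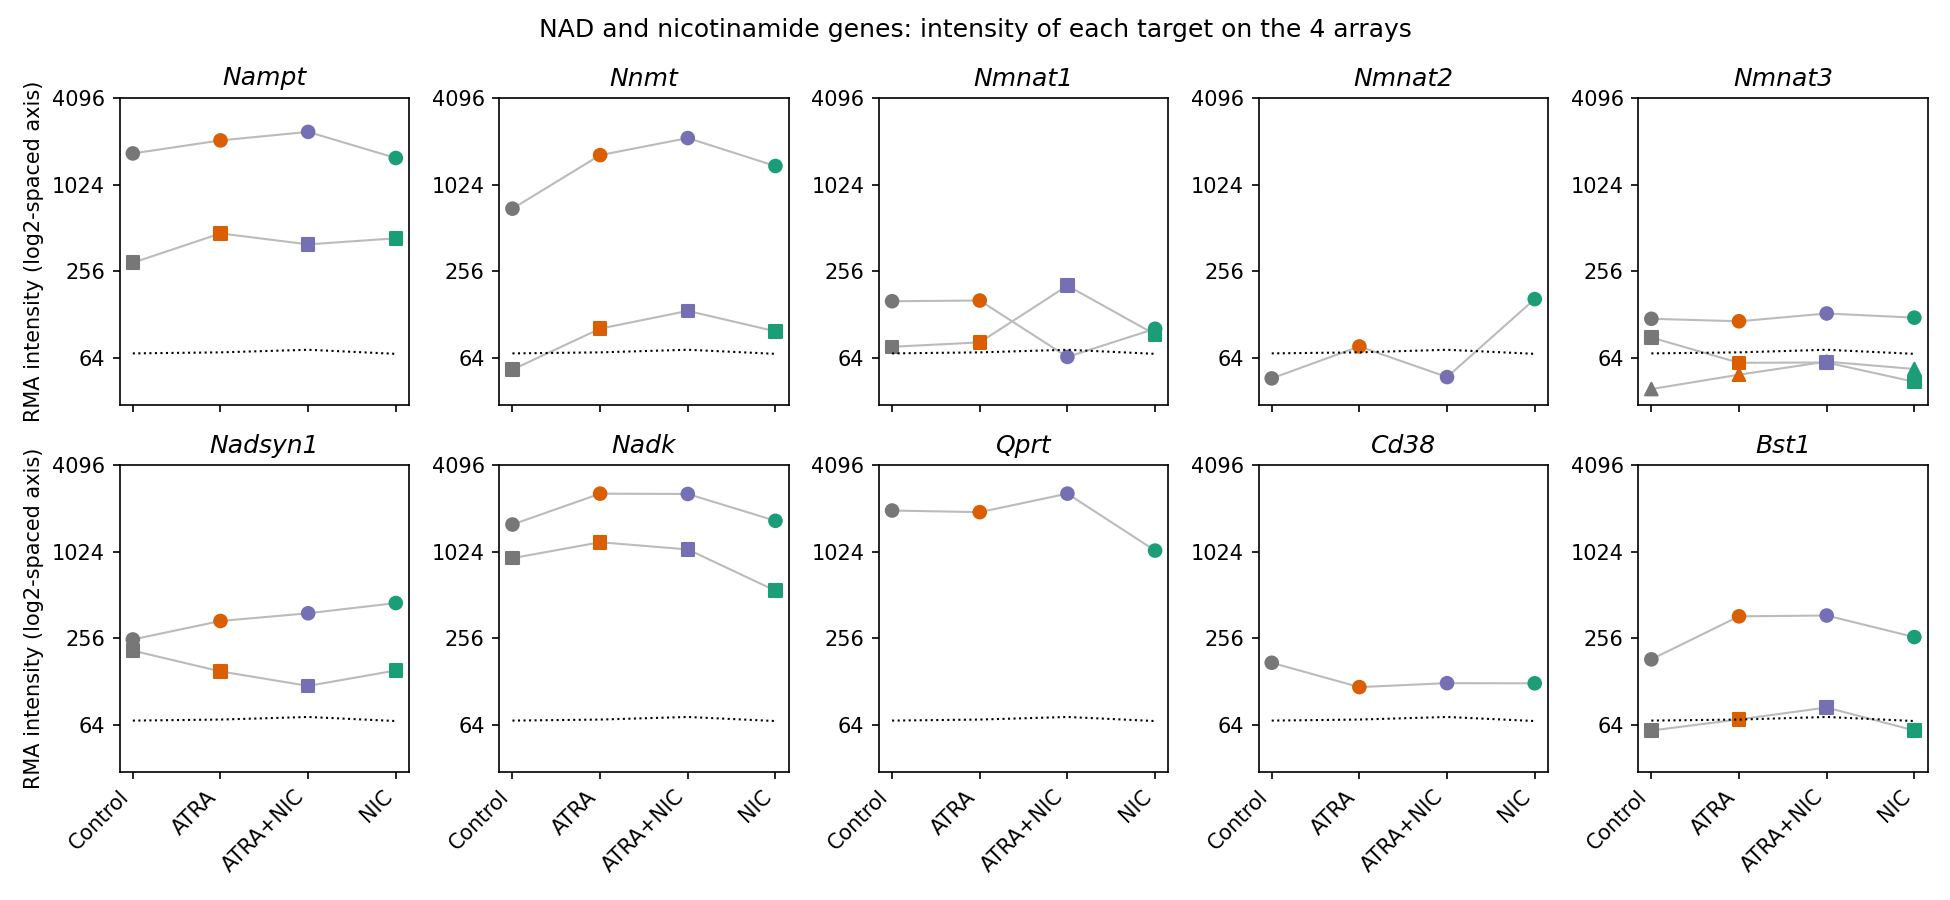
RMA intensity (vertical axis, log2-spaced) of each target of the 10 genes on the 4 arrays (horizontal axis), with lines joining the values of one target and different marker shapes for targets of one gene. The dotted line is 2 times the random probes; both Nnmt targets are lowest on Control and highest on ATRA+NIC, and Nmnat2 passes the line on ATRA and NIC only.

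Nampt, the rate-limiting enzyme of nicotinamide salvage, stayed within 1.5-fold in each comparison when its targets were averaged, though not on each target. Its brighter target (chromosome 12, 33505199 to 33535965) read 1685 on Control, 1566 on NIC, 2077 on ATRA and 2380.3 on ATRA+NIC, and its dimmer target read 293, 433, 468 and 393. Both targets were higher on ATRA than on Control, by 0.30 and 0.68, but they went opposite ways for nicotinamide alone, at -0.11 and 0.56. Averaged, Nampt differed by 0.49 in ATRA minus Control, 0.23 in NIC minus Control, 0.23 in ATRA+NIC minus NIC and -0.028 in ATRA+NIC minus ATRA. The dimmer target was lower, not higher, in ATRA+NIC minus NIC, at -0.14.

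The NMNAT enzymes, which complete NAD in the nucleus (NMNAT1), in the Golgi and axons (NMNAT2) and in mitochondria (NMNAT3), gave no common direction. Nmnat2 (chromosome 1, 154802230 to 154966391) read 45.9 on Control, 163 on NIC, 76.5 on ATRA and 46.9 on ATRA+NIC. The NIC array stood above the other 3, and Control and ATRA+NIC were below background. The measured differences were -1.80 in ATRA+NIC minus NIC and 1.83 in NIC minus Control. Against the lowest reading above background, NIC was at least 2.39-fold higher than Control and at least 2.25-fold higher than ATRA+NIC. Nmnat2 was among the dimmest 10th of kept symbols, 95% of which lay between -2.21 and 2.27 in NIC minus Control, so its value is inside the common range for dim genes. NMNAT2 is mainly a nerve gene. Nerve and Schwann cell markers had summed intensities of 841 on Control, 719.6 on NIC, 713 on ATRA and 535 on ATRA+NIC. Of these 6 genes 3 passed the filter on dim genes, and their part in the Nmnat2 values was not tested.

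Nmnat1 averaged 109.6 on Control, 97.1 on NIC, 114 on ATRA and 115 on ATRA+NIC, and its differences stayed within -0.18 to 0.24. That flat mean came from targets that disagreed. The brighter target (chromosome 4, 148842895 to 148859281) read 158 on Control, 102 on NIC, 160 on ATRA and 64.7 on ATRA+NIC, while the dimmer one read 76.1, 92.7, 81.7 and 203. In ATRA+NIC minus Control they stood at -1.29 and 1.41, a gap of 2.70. Of symbols with 2 targets above background on all 4 arrays, 95% had gaps up to 1.42. The brighter Nmnat1 target was below background on ATRA+NIC, so its gap is not like for like. That reading gives at least 2.18-fold for Control over ATRA+NIC on that target. No direction can be given for Nmnat1 on the ATRA+NIC array.

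Nmnat3 (chromosome 9) was read by 3 targets. The brightest read 119 on Control, 121 on NIC, 115 on ATRA and 130 on ATRA+NIC and differed by at most 0.18. The second was above background on Control only, at 88.4, which gives Control at least 1.30-fold over NIC, 1.27-fold over ATRA and 1.22-fold over ATRA+NIC on that target. The third was above background on no array.

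**Figure D2:**
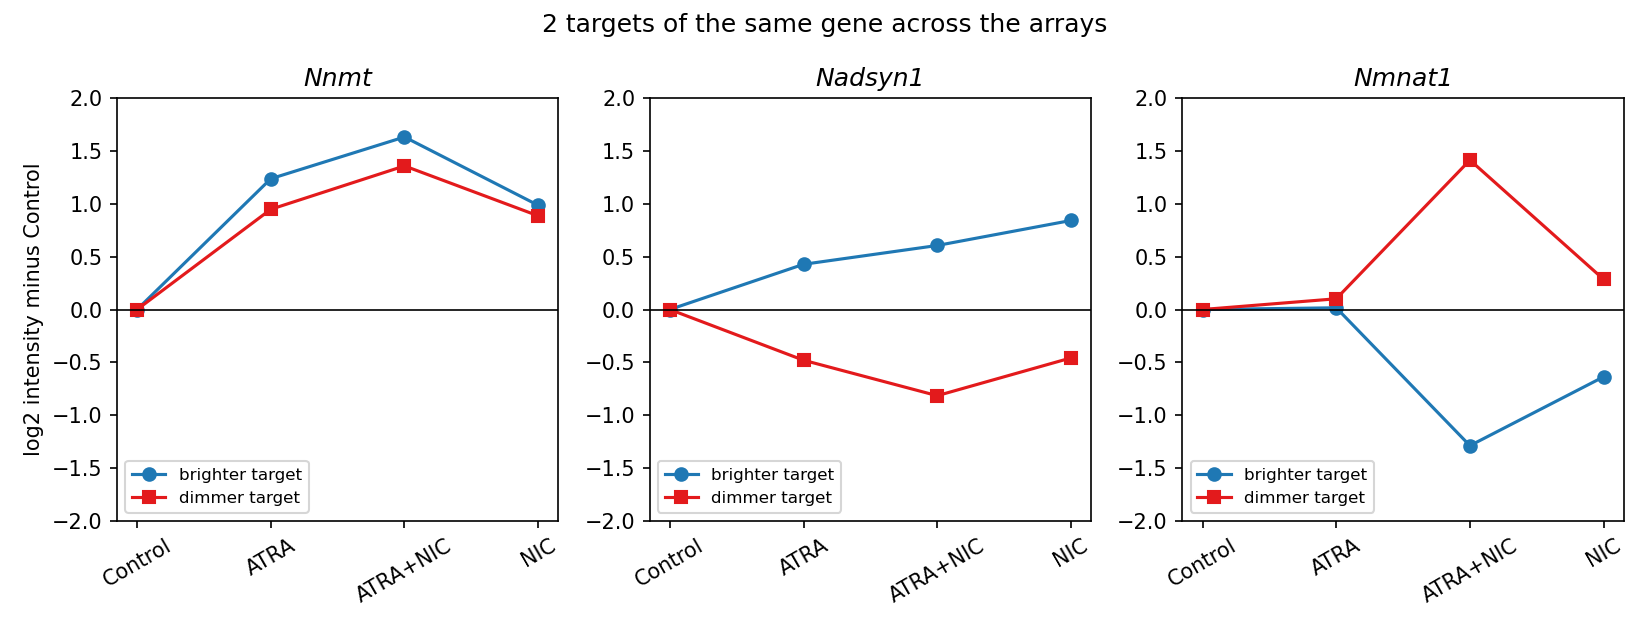
Log2 intensity minus the Control value (vertical axis) of the 2 targets of Nnmt, Nadsyn1 and Nmnat1 on the 4 arrays (horizontal axis), with lines joining the values of one target. The Nnmt targets run together, the Nadsyn1 targets lie on opposite sides of Control, and the Nmnat1 targets part by 2.70 on ATRA+NIC.

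Qprt, which feeds the tryptophan route into NAD (chromosome 7, 134251283 to 134265543), read 1981 on Control, 1043 on NIC, 1930.2 on ATRA and 2597 on ATRA+NIC. NIC stood below the other 3 arrays and ATRA+NIC was highest. Qprt differed by -0.93 in NIC minus Control (1.90-fold) and by 1.32 in ATRA+NIC minus NIC (2.49-fold), but by 0.43 in ATRA+NIC minus ATRA and by -0.038 in ATRA minus Control. The value in ATRA+NIC minus NIC lay above the middle 95% of symbols of like brightness, -2.45 to 1.12, and that in NIC minus Control inside its range, -0.997 to 1.02. Qprt is read by 1 target, so no second target bears on it. Its additive ATRA coefficient was 0.64 (SE 0.42, limma adjusted p = 0.768).

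Nadsyn1, the NAD synthetase of the de novo and nicotinic acid routes (chromosome 7), averaged 229.6 on Control, 262 on NIC, 225 on ATRA and 214 on ATRA+NIC. Its 2 targets, which cover nearly the same span, went apart. The brighter one read 251, 450.1, 338 and 382 on Control, NIC, ATRA and ATRA+NIC, and the dimmer one 209.9, 153, 151 and 119. Control was the lowest array for one and the highest for the other, so the direction against Control depends on the target.

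Nadk, the cytosolic kinase that turns NAD into NADP (chromosome 4), was higher on both ATRA arrays than on both arrays without ATRA. The target over the whole gene (154937930 to 154965100) read 1583 on Control, 1680.0 on NIC, 2596 on ATRA and 2583 on ATRA+NIC. The target over its 3′ part (154956779 to 154965100) read 924, 549, 1192 and 1062. The averaged difference was 0.79 in ATRA+NIC minus NIC and 0.54 in ATRA minus Control, a pair that shares no array. Both targets were above 0 in each. The averages lay inside the middle 95% of symbols of like brightness, -2.45 to 1.12 and -1.93 to 0.83. The additive ATRA coefficient was 0.66 (SE 0.30, limma adjusted p = 0.651) and did not pass 0.05. For nicotinamide the targets disagreed, at 0.085 and -0.75 in NIC minus Control.

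Hair shaft markers ran opposite to averaged Nadk over the same arrays. The 5 measured genes had summed intensities of 56141 on Control, 116928 on NIC, 7147 on ATRA and 13422 on ATRA+NIC. They were highest on the array where averaged Nadk and Qprt were lowest. All 5 were at least 2-fold lower in both ATRA differences, and 4 passed the limma fit as lower with ATRA. The Nadk target over the whole gene was lowest on Control, at 1583, and not on NIC, at 1680.0. Qprt differed by -0.038 in ATRA minus Control. The part of hair follicle content in the Nadk and Qprt values was not tested.

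Cd38 and Bst1 are paralogs that lie beside each other on chromosome 5 and encode ADP-ribosyl cyclases, surface enzymes that consume NAD. Bst1, also known as CD157 and found on myeloid and stromal cells, read 183 on Control, 261 on NIC, 364 on ATRA and 369 on ATRA+NIC with its brighter target (44210165 to 44233339). Its dimmer target read 58.4, 58.5, 69.8 and 84.4, below background on Control and NIC. Both targets read higher with ATRA in both pairs, and the average differed by 0.51 in ATRA+NIC minus NIC and 0.63 in ATRA minus Control. These averages lay inside the middle 95% of symbols of like brightness, -1.69 to 1.43 and -1.25 to 1.16. Because of its readings below background, the dimmer target alone gives at least 1.02-fold for ATRA over Control. It gives at least 1.24-fold for ATRA+NIC over NIC and at least 1.23-fold for ATRA+NIC over Control. Against Control, ATRA+NIC stood at 0.77 (1.71-fold), and the brighter target alone was past 2-fold there at 1.01. Bst1 passed the filter on dim genes through ATRA, ATRA+NIC and NIC only. Its Control average of 103.3 was under the median target of that array, 104.7. A lower Control reading is thus not independent of its passing. The additive ATRA coefficient was 0.57 (SE 0.29, limma adjusted p = 0.688).

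Cd38 (44260089 to 44303417) went the other way against Control. It read 173 on Control, 124 on NIC, 117 on ATRA and 125 on ATRA+NIC, so the 3 treated arrays lay together below Control. The differences were -0.56 for ATRA, -0.47 for NIC and -0.47 for ATRA+NIC, all against the same Control array, and 0.0036 in ATRA+NIC minus NIC and 0.091 in ATRA+NIC minus ATRA. In human leukaemia cells retinoic acid is known to raise CD38. Here its ATRA coefficient was -0.28 (SE 0.32, limma adjusted p = 0.887).

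Both genes are used as markers of blood cells. Neutrophil markers, 6 genes, had summed intensities of 8052 on Control, 2829 on NIC, 25898 on ATRA and 25322 on ATRA+NIC, high on the 2 arrays where Bst1 was highest. Most of that sum was S100a8, which stressed keratinocytes also make. Without it, a choice made after its values were seen, the other 5 genes summed to 529.9, 549, 1036 and 615. Macrophage and dendritic cell markers summed to 8776, 5879, 9037 and 8429, lowest on NIC. B and plasma cell markers summed to between 10284 and 11038, lowest on Control, and most of the sum was Sdc1. Sdc1 is a keratinocyte surface gene too and was again left out after its values were seen. Without it the other 5 genes, of which 2 passed the filter on dim genes, summed to 1029.6, 670.0, 865 and 654. Control was thus lowest with Sdc1 and highest without it. The B cell marker Ms4a1 was below background on every array, and T and NK cell markers summed to 1016, 743, 877 and 697. The part of these cells in the Bst1 and Cd38 values was not tested.

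**Figure D3:**
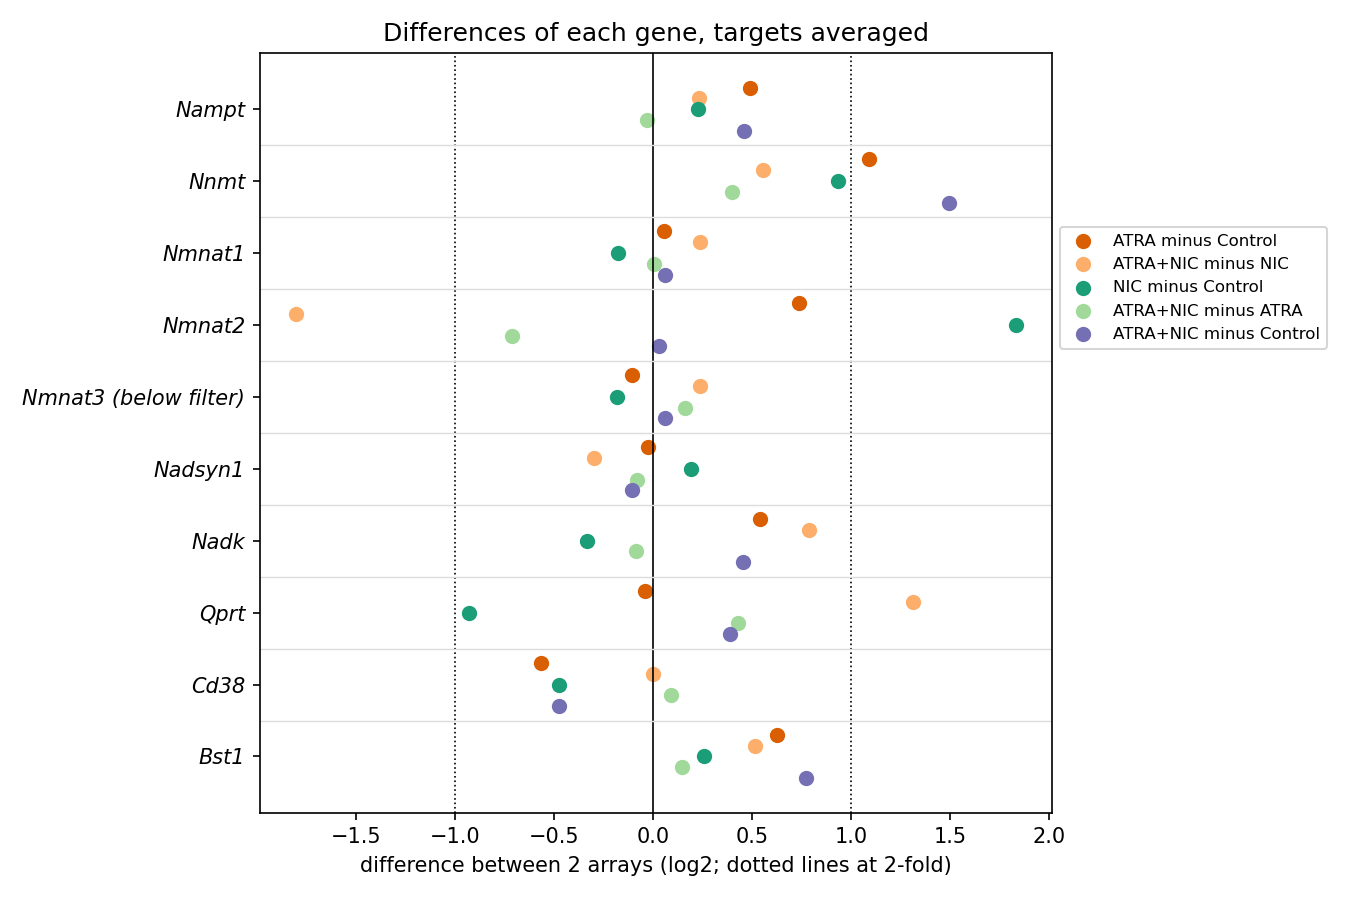
Difference between 2 arrays (horizontal axis, log2, dotted lines at 2-fold) for the 10 genes (vertical axis), with targets averaged and one colour for each comparison. Nnmt lies to the right in all 5 comparisons, Nmnat2 spans -1.80 to 1.83, and Nmnat3 is marked as below the filter on dim genes.

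As a group the genes stood out little. Of the 9 that passed the filter, 1 (Nnmt) was at least 2-fold apart in ATRA minus Control, against 9.59% of all kept symbols, and 1 (Nmnat2) in NIC minus Control, against 10.7%. In ATRA+NIC minus Control 1 (Nnmt) was, against 12.8%, in ATRA+NIC minus ATRA 0, against 9.26%, and in ATRA+NIC minus NIC 2 (Nmnat2 and Qprt), against 14.5%. Nmnat2 passed the filter on dim genes only through NIC, the array where it was high, so a NIC difference was built into its passing; without it the count was 0 in NIC minus Control, and 1 for ATRA+NIC against NIC. At 1.5-fold the counts were 3, 3, 2, 1 and 3 of 9, against 25.3%, 28.7%, 29.7%, 22.5% and 32.8%. Nmnat2 is among them in all but ATRA+NIC minus Control. Its readings below background allow only at least 1.12-fold for ATRA over Control and at least 1.05-fold for ATRA over ATRA+NIC. Bst1 is among them in ATRA minus Control and ATRA+NIC minus Control, and it passed the filter on dim genes through the arrays other than Control. These counts are near what the arrays show for genes at large and are no result about the group. The medians of the 9 were 0.49, 0.19, 0.39, 0.0040 and 0.24 in the same order, against medians of 0.056, 0.035, 0.017, -0.027 and -0.0050 over all kept symbols.

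In the limma fit 0 of the 9 genes passed an adjusted p of 0.05 for ATRA, where 0.618% of all kept symbols did, and 0 for NIC, where 0% did. At an unadjusted p under 0.05 there was 1 for ATRA (Nnmt), against 8.16% of all, and 0 for NIC, against 5.27%. With an intensity trend in the fit also 0 of the 9 passed for either agent, where 3.38% of all kept symbols passed for ATRA and 0.859% for NIC. At an unadjusted p under 0.05 there were then 3 for ATRA and 1 for NIC, against 11.2% and 6.51% of all.

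Other genes of NAD and nicotinamide metabolism were read in 4 lists, 46 genes of which 45 were on the array and 38 passed the filter. In the limma fit 0 of the 38 passed for ATRA and 0 for NIC, against 0.618% and 0% of all kept symbols. At an unadjusted p under 0.05 there were 2 for ATRA (Kmo and Nt5e) and 1 for NIC (Slc5a8), against 8.16% and 5.27% of all. At least 2-fold higher were 1 gene in ATRA minus Control, 3 in NIC minus Control, 4 in ATRA+NIC minus Control, 0 in ATRA+NIC minus ATRA and 1 in ATRA+NIC minus NIC, against 4.11%, 5.33%, 5.81%, 5% and 6.92% of all kept symbols. At least 2-fold lower were 0, 0, 0, 1 and 1, against 5.48%, 5.36%, 7%, 4.26% and 7.59%. These counts are of averaged targets and include Kmo and Mtr, whose 2-fold differences rest on readings below background. Except for the 4 genes in ATRA+NIC minus Control and the 3 in NIC minus Control, the shares of the 38 were below those of all symbols.

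The methyl donor cycle supplies NNMT with S-adenosylmethionine and removes its product. The list with nicotinamide oxidation had 15 genes, all kept. Of these 13 had an ATRA difference above 0 without nicotinamide (median 0.40) and 12 with it (median 0.32). Of all kept symbols 55.0% and 49.6% did. In the niacin and riboside list 5 and 3 of 6 kept genes did, and in NAD and NADP handling 5 and 3 of 8. The lists were chosen with earlier results of these data known, so such counts are no independent support. For nicotinamide 10 and 9 of the 15 were above 0 without and with ATRA, against 52.9% and 47.1% of all kept symbols, with medians of 0.14 and 0.16. Bhmt, which remethylates homocysteine, had the highest values, at 1.91 in ATRA minus Control, 1.63 in NIC minus Control and 1.86 in ATRA+NIC minus Control, with 0.23 in ATRA+NIC minus NIC and -0.050 in ATRA+NIC minus ATRA. Like Nnmt, Bhmt was lowest on Control.

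The size of the Bhmt differences rests on its dimmer target, which read 96.6 on Control, 813 on NIC, 1037 on ATRA and 884 on ATRA+NIC. The brighter target read 8360.0, 9582, 11070 and 12121, again lowest on Control but in smaller steps. Bhmt did not pass the limma fit for ATRA (adjusted p = 0.649) and did pass with an intensity trend (limma adjusted p = 0.00724). With the trend it was the 1 of the 38 kept genes that passed for ATRA, against 3.38% of all kept symbols. Both fits assume that the agents add up. The Bhmt ATRA difference was 1.91 without nicotinamide and 0.23 with it, so the pass is no firm call for ATRA. The 1 gene that was 2-fold lower in ATRA+NIC minus ATRA was Mtr, named after its values were seen. It passed the filter on dim genes only through ATRA, and 1 of its 2 targets was below background on ATRA+NIC, which gives at least 1.79-fold for ATRA over ATRA+NIC on that target. The other target read 96.5 on ATRA and 76.4 on ATRA+NIC, so its averaged difference of -1.15 is not a measured 2-fold.

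The tryptophan route to quinolinate, the substrate of QPRT, had 9 kept genes. Of these 7 had an ATRA difference above 0 without nicotinamide (median 0.17) and 8 with it (median 0.44), against 55.0% and 49.6% of all kept symbols. Ido2, a tryptophan dioxygenase, differed by 0.75 and 0.56 in the ATRA differences without and with nicotinamide. It differed by 1.11 in ATRA+NIC minus Control, with both targets above background on all arrays. Kmo, the kynurenine hydroxylase, averaged past 2-fold in ATRA+NIC minus Control (1.19) and ATRA+NIC minus NIC (1.13), but 1 of its 2 targets was below background on every array except ATRA+NIC. That target gives at least 1.44-fold for ATRA+NIC over Control and at least 1.45-fold over NIC, and the brighter target read 1023 on Control, 1034 on NIC, 1418 on ATRA and 1342 on ATRA+NIC, so 2-fold is not supported for Kmo. For nicotinamide alone 3 of the 9 were above 0, and 8 were in ATRA+NIC minus ATRA, with medians of -0.043 and 0.36, against the same 52.9% and 47.1% of all.

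Among the niacin and riboside routes, 6 kept genes, Slc5a8, a carrier of nicotinate and other small acids, read 137 on Control, 287 on NIC, 229 on ATRA and 394 on ATRA+NIC. It was higher in both nicotinamide differences, 1.07 and 0.78 (limma adjusted p = 0.831 for NIC). Nt5e, the surface enzyme CD73 that splits nicotinamide mononucleotide, was lower in both ATRA differences, at -0.48 and -1.26 (limma adjusted p = 0.602 for ATRA). In the list of NAD and NADP handling, 8 kept genes, medians were between -0.27 and 0.16 in the 5 comparisons, and Nudt12, an NADH pyrophosphatase, differed by 1.07 in NIC minus Control and -0.037 in ATRA+NIC minus ATRA. Nudt13, of the same family, was at -0.55 and -0.83 in the ATRA differences, and the 3 of its 5 targets that were above background on all arrays were lower in both. Another target read 53.9 on Control, below background, and 71.1 on ATRA. Nudt13 passed the filter on dim genes only through Control and NIC, the arrays without ATRA, so a lower ATRA reading was built into its passing.

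**Figure D4:**
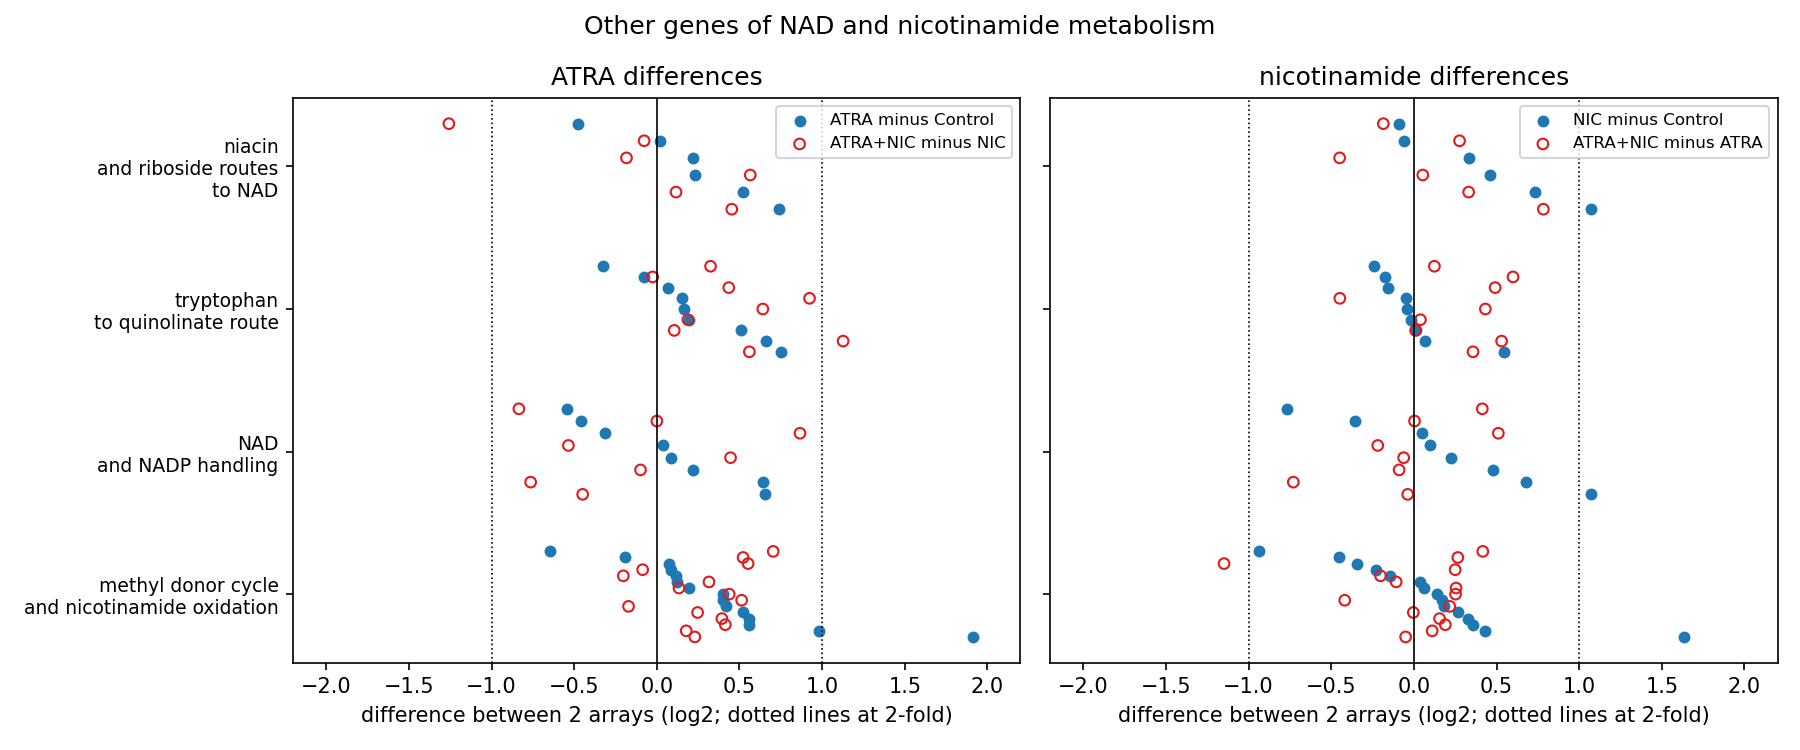
Differences between 2 arrays (horizontal axis, log2, dotted lines at 2-fold) of the 38 kept genes in 4 lists (vertical axis), for ATRA on the left and nicotinamide on the right. Filled and open points of one height are the same gene in the 2 differences that share no array; most points lie within 2-fold, and the filled point farthest right is Bhmt in both panels.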

How the data were processed

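RNA of mouse skin was labelled with Cy3 and read on 1 NimbleGen array for each of 4 groups, per the labels. The authors deposited for each array an intensity per target, with RMA in the file names and build MM9 in the annotation. Neither RMA settings nor software were stated in what was read here. The value table the authors deposited holds the same intensities for 24323 targets and was used as an alternative. 8 further per-sample columns were not used.

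Intensities were put on the log2 scale. Targets of the 10 genes were taken by the array's gene name, other targets by current symbol through gene ID (RefSeq, GRCm38.p6), and targets of a symbol were averaged. A symbol was kept if it reached the median target of at least 1 array. An additive limma fit (version 3.58.1 in R 4.3.3, lmFit and eBayes, Benjamini-Hochberg over all kept symbols) was tested on simulated data. Of the other pathway lists, genes were named that had the largest mean ATRA or NIC difference of their list or were 2-fold the same way in both differences that share no array, which 0 were. The genes and lists were chosen with earlier results of these data known. Alternatives were other scalings, summaries over targets, filters, sources and an intensity trend.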

Additional observations from a re-analysis of the deposited data

Results flagged for a closer look

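For 7 of the 10 genes the ATRA or the nicotinamide difference had opposite signs without and with the other agent, as did 65.3% of all kept symbols. With 1 array a group the difference was not tested. Given as the ATRA difference with nicotinamide minus that without (which equals the nicotinamide difference with ATRA minus that without, log2), the values were -2.54 for Nmnat2, which was below background on Control and ATRA+NIC so that its value is no measured size, 1.35 for Qprt, 0.57 for Cd38, 0.34 for Nmnat3, -0.26 for Nampt, -0.27 for Nadsyn1 and 0.18 for Nmnat1. Nmnat2 and Qprt are those whose NIC array stood apart from the other 3, and the targets of Nampt, Nadsyn1, Nmnat1 and Nmnat3 disagree in direction.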

How the results depend on the processing

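Of 58 counts of genes under an alternative, 52 stayed within 1.5 times the reported count and 6 did not. With the series value table or the filter at percentile 75, NIC minus Control had 0 genes at least 2-fold apart and ATRA+NIC minus NIC had 1, because Nmnat2 is left out. With the brightest target of a gene, ATRA+NIC minus Control had 3 and ATRA+NIC minus ATRA had 1, since Nmnat1 then stands at -1.29 and -1.30 and Bst1 at 1.01. Under cyclic loess, median centring, the mean linear intensity, naming by gene ID and no filter each count was as reported. Of 395 single differences 3 crossed 2-fold and 0 that were 2-fold apart changed sign. The limma fit passed 0 of the genes under each alternative, with adjusted p down to 0.140 for ATRA (Nnmt with an intensity trend) and 0.627 for NIC. No paired analysis was possible because each group has 1 array. Signal over background limits Nmnat2, Nmnat3 and the dimmer targets of Nnmt and Bst1.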
